A study of Mus musculus with 12 samples.

Results

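*Hprt* encodes the enzyme that returns hypoxanthine and guanine to the nucleotide pool, and it was examined here with 9 other genes of purine salvage and turnover, *Aprt*, *Adk*, *Ada*, *Gda*, *Xdh*, *Impdh1*, *Impdh2*, *Ppat* and *Prtfdc1*. The members were picked from a knowledge of their log2 signals on these 12 arrays, *Hprt* because its level set the cell lines apart differently from the sample labels. All values of *Hprt* are for this reason a description, with no test. Of the 10 genes, 8 had an array feature carrying that symbol alone, 1 feature each, and *Impdh2* and *Prtfdc1* had none. The remaining 8 stand among 19938 genes with such a feature, and 6 of them were among the 10880 genes above a signal of 45 (5.49 on the log2 scale) on at least 1 array, the floor named in the study's methods. Expression arrays were hybridised with total RNA from day 7 embryoid bodies (EBs), floating clusters of differentiating cells, and from the undifferentiated mouse embryonic stem cells (ESCs). The 6 groups held 2 arrays each: EBs without HP1β (HP1βKO, genotype Cbx1-/-), EBs without HP1α (HP1αKO, Cbx5-/-), wild-type (WT) EBs, and ESCs of the same 3 genotypes. The labels give both knockouts the line name R1 and both WT groups the line name HM1, by which line and knockout cannot be told apart. The study's methods instead describe HM1 as the littermate WT line of the knockout ESCs and list R1 as a line of its own, and which of these holds for the arrays was not resolved. ESCs grew on mitotically inactive mouse fibroblasts with gelatin, and were sorted on magnetic beads for the surface marker SSEA1, while EBs were grown in suspension without LIF and not sorted. The titles number the arrays of a group as biological replicates, but separate cultures are not described, so that the spread between 2 arrays may be technical.

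Cells obtain purine nucleotides by assembling the ring step by step on phosphoribosyl pyrophosphate (PRPP), or by salvage of free bases and nucleosides. HPRT salvages hypoxanthine and guanine and APRT adenine, while adenosine kinase (*Adk*) phosphorylates adenosine and adenosine deaminase (*Ada*) converts it to inosine. Guanine deaminase (*Gda*) and xanthine dehydrogenase (*Xdh*) lead towards uric acid, IMP dehydrogenases (*Impdh1*, *Impdh2*) commit IMP to guanine nucleotides, and PPAT catalyses the first committed step of de novo synthesis. *Hprt* is X-linked, its loss can be selected for and against in culture, and HM1 is known as an ESC line lacking HPRT, a property used for gene targeting.

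Promoter windows of 300 bases, 250 before and 50 after the annotated start, were taken from RefSeq (GRCm38.p6) for the 8 members it matched. *Hprt* is shown because its level is the pattern reported here, *Aprt* as the other base salvage enzyme with a feature, and *Gda* as a member under the floor on every array. Each window is written 5′ to 3′ on the gene's strand, and capitals mark GGGCGG, the GC box, or its reverse complement CCGCCC.
Hprt, chrX:52987828-52988127, plus strand: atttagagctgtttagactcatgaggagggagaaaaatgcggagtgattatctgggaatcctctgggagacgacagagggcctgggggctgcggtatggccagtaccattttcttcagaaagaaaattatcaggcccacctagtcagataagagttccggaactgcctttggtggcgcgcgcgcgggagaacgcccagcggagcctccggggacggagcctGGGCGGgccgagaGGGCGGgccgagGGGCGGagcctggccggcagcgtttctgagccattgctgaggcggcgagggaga
Aprt, chr8:122576858-122577157, minus strand: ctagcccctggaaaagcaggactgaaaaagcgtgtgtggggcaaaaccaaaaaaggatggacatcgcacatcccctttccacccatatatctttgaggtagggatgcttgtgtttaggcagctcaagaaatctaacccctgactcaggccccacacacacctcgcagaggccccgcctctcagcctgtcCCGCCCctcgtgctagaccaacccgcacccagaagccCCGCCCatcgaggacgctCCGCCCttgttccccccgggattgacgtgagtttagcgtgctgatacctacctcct
Gda, chr19:21472612-21472911, minus strand: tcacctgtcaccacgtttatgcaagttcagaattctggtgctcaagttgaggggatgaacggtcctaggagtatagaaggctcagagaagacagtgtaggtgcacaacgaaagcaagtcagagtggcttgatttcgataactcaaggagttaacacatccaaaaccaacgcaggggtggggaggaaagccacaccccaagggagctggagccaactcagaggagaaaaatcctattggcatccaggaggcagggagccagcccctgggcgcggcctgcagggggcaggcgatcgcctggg
The *Hprt* window held 3 matches to GGGCGG and the *Aprt* window 3, against 0 in the *Gda* window, and none of the 3 windows held TATAAA on either strand. Over all 32851 RefSeq windows of this length, 35.7% held GGGCGG at least once, 10.7% at least 3 times, and 13.62% held TATAAA. GC content was 61.0% for *Hprt*, 57.7% for *Aprt* and 55.0% for *Gda*, beside a median of 52.7% over all windows. These matches describe the letters only.

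The knocked-out genes were inspected before the members. Cbx1 was at 7.73 and 7.67 in HP1βKO EBs, against 9.36 and 9.45 in WT EBs, and at 7.59 and 7.99 in HP1βKO ESCs, against 9.45 and 10.01 in WT ESCs. Cbx5 was at 9.20 and 9.21 in HP1αKO EBs, against 10.36 and 10.40 in WT EBs. In ESCs Cbx5 was at 8.04 and 9.99 in the libraries labelled HP1αKO, against 9.66 and 8.29 in those labelled WT, so that replicate 2 of each group went against its label. These libraries are written below as those labelled ESC HP1αKO 2 and ESC WT 2, and some of the results that rest on them are also given without them. It is not known here whether either feature lies in a deleted exon. The summed level of 17 measured fibroblast markers also varied among the ESC libraries, at 10.68 and 9.72 in HP1βKO, 11.07 and 9.52 in HP1αKO and 11.75 and 9.45 in WT, on the log2 scale. The 10 pluripotency markers summed to 10.41 to 11.02 in EBs, against 13.31 to 13.83 in ESCs. The SD over genes of the difference between replicates was 0.13 to 0.20 in EB groups and 0.39 to 0.57 in ESC groups, so the 2 arrays per group limited the precision in ESCs most.

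*Hprt* divided the 12 arrays into 5 above the floor and 7 below it. In EBs its log2 signal was 3.83 and 4.12 in HP1βKO, 6.28 and 6.84 in HP1αKO and 4.22 and 4.4 in WT. Only the HP1αKO EBs were above the floor, and the HP1βKO and WT EBs both lay under it. The measured difference between HP1αKO and WT EBs was 2.25 on the log2 scale, with the WT signals under the floor, and HP1βKO EBs differed by -0.33 from WT EBs and by -2.58 from HP1αKO EBs. HP1βKO EBs, labelled R1 as the HP1αKO EBs are, thus lay nearer to the WT EBs, labelled HM1.

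In ESCs the order did not follow the labels. The signal of *Hprt* was 4.66 and 4.56 in HP1βKO, 8.40 and 4.25 in the libraries labelled HP1αKO and 6.48 and 8.84 in those labelled WT. The gap of 4.15 between the HP1αKO libraries was the largest replicate gap of all 10880 genes in that group, and the gap of 2.36 between the WT libraries ranked 51st. The library labelled ESC WT 2 had the highest *Hprt* of the series, and the library labelled ESC HP1αKO 2 was among the 7 low arrays. ESC WT 1, at the intermediate 6.48, also had the highest summed fibroblast markers of the ESCs, 11.75, while ESC HP1βKO 1 with 10.68 had *Hprt* at 4.66. The part of fibroblast RNA in the *Hprt* level was not tested.

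The sizes of the group differences of *Hprt* in ESCs depended on single libraries, and so did the sign of those with HP1αKO. HP1αKO ESCs differed from WT ESCs by -1.34 with all libraries, but by 0.74 without ESC HP1αKO 2 and by 1.92 without both libraries that Cbx5 opposed. HP1βKO ESCs differed from WT ESCs by -3.05, and by -1.88 without ESC WT 2. By group mean the order was ESC WT (7.66), EB HP1αKO (6.56), ESC HP1αKO (6.33), ESC HP1βKO (4.61), EB WT (4.31) and EB HP1βKO (3.98), and each of the first 4 overlapped its neighbour in that order, while ESC HP1βKO and EB WT, and EB WT and EB HP1βKO, did not. All signals of ESC HP1βKO, EB WT and EB HP1βKO lay under the floor, so the order among them is a description only. The differences of EBs from ESCs were -0.63 in HP1βKO, 0.24 in HP1αKO and -3.35 in WT, and without the 2 opposed libraries -1.84 in HP1αKO and -2.18 in WT.

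**Figure D1:**
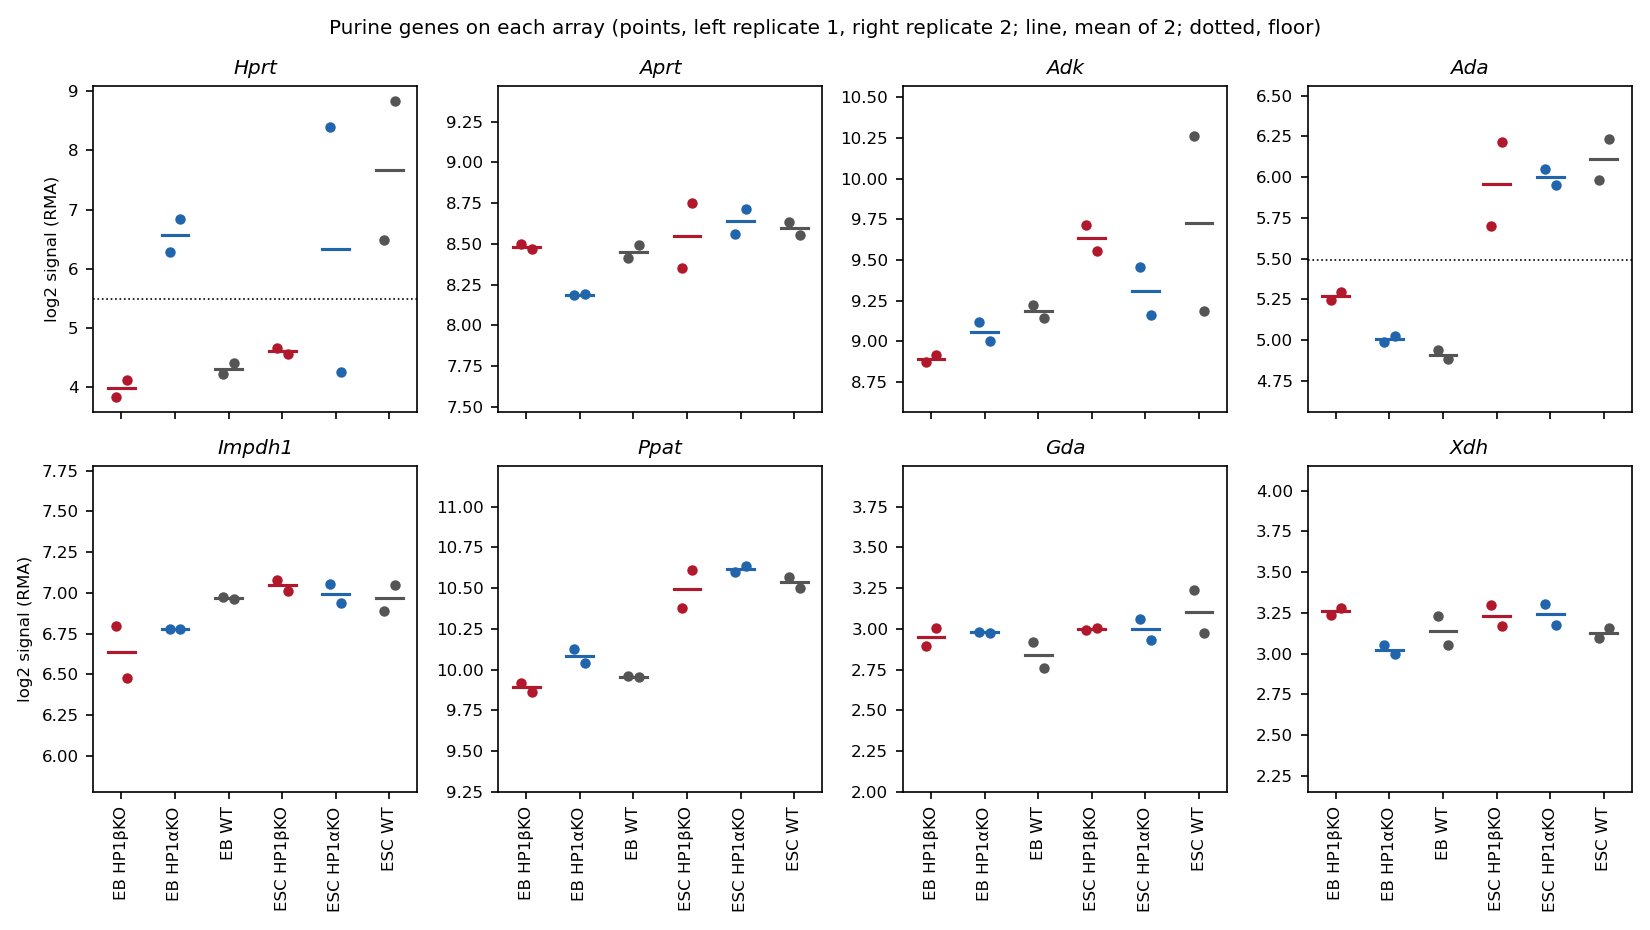
Log2 signal of the 8 measured members on each array by group, with replicate 1 left and replicate 2 right, a line at the mean of the 2 arrays and a dotted line at the floor of 5.49. *Hprt* spans 3.83 to 8.84 with a wide split inside HP1αKO and WT ESCs, while *Gda* and *Xdh* stay at 3.31 or lower; every axis spans at least 2 log2 units.

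Among the genes tested, the pattern of *Hprt* over the 12 arrays was most like that of *Plaa* (Pearson r = 0.91), *Rfng* (0.89), *Rcor2* (0.84), *Usp1* (0.83) and *Prcc* (0.83). The most opposed were Cbx5 (r = -0.95), *Rian* (-0.92), *Meg3* (-0.91), DQ267102 (-0.91) and *Dcbld1* (-0.89). These values describe 12 arrays that share 6 groups and 2 states and carry no test. For Cbx5, which encodes HP1α, r was -0.97 over the 6 EB arrays and -0.94 over the 6 ESC arrays, for *Meg3* -0.99 and -0.95, and for *Rian* -0.98 and -0.97. Spearman's rho over the 12 arrays was -0.87 for Cbx5, -0.91 for *Meg3* and -0.94 for *Rian*. Without ESC WT 2 and ESC HP1αKO 1, the arrays farthest from the *Hprt* median, r over 10 arrays was -0.88 for Cbx5, -0.86 for *Meg3* and 0.75 for *Plaa*. Without the 2 libraries opposed by Cbx5 it was -0.94, -0.9035 and 0.97.

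*Meg3*, a maternally expressed imprinted noncoding RNA, was at 10.002 and 10.32 in HP1βKO EBs, 6.27 and 5.61 in HP1αKO EBs and 9.73 and 9.31 in WT EBs. In ESCs it was at 9.37 and 9.52 in HP1βKO, 5.28 and 9.36 in the libraries labelled HP1αKO and 8.93 and 5.62 in those labelled WT. The 4 arrays with the lowest *Meg3* were 4 of the 5 with *Hprt* above the floor, and ESC WT 1 was the exception, with *Hprt* at 6.48 and *Meg3* at 8.93.

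**Figure D2:**
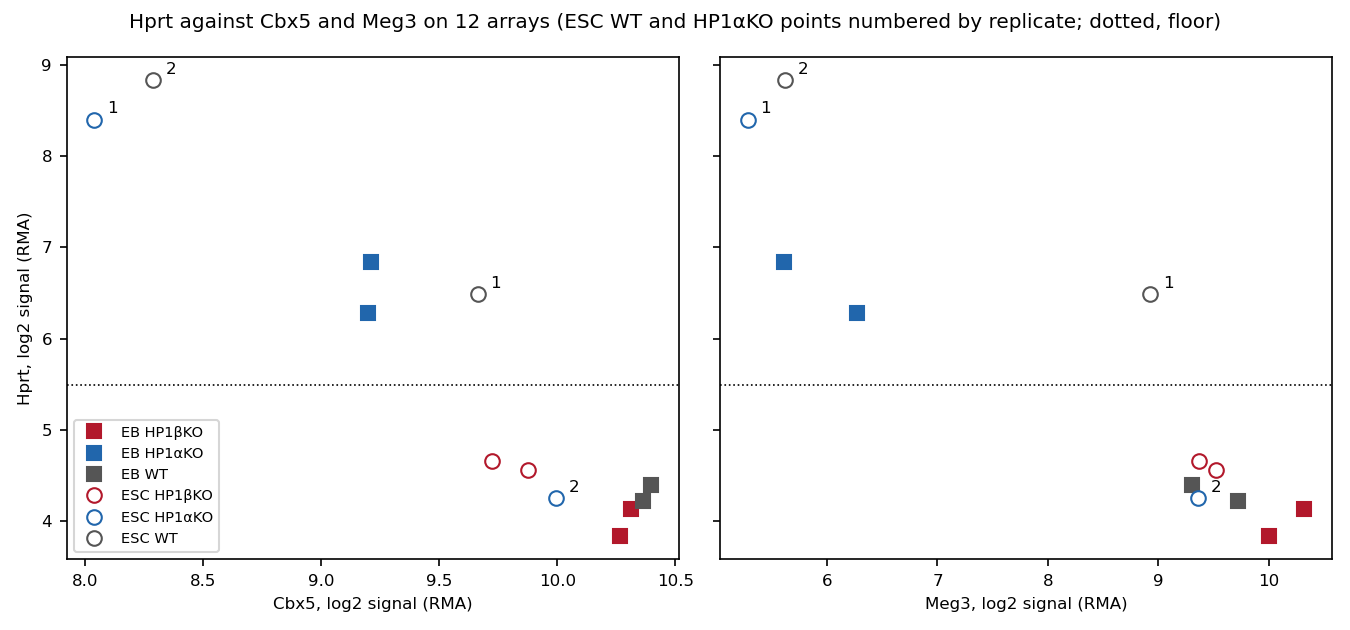
*Hprt* against Cbx5 (left) and *Meg3* (right), log2 signal on 12 arrays, squares for EBs and open circles for ESCs, colour for genotype, with replicate numbers beside HP1αKO and WT ESCs and a dotted line at the floor. ESC WT 2 (8.84) and ESC HP1αKO 1 (8.40) lie together at high *Hprt* with low Cbx5, and ESC HP1αKO 2 (4.25) lies with the HP1βKO and the WT EB arrays.

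Other measured members and X-linked neighbours did not share the spread of *Hprt*. Its SD over the 12 arrays was 1.75, against 0.53 for *Ada*, 0.39 for *Adk*, 0.31 for *Ppat*, 0.18 for *Aprt* and 0.17 for *Impdh1*. Over the 12 arrays r with *Hprt* was 0.44 for *Ppat*, 0.41 for *Ada*, 0.29 for *Impdh1*, 0.21 for *Adk* and -0.10 for *Aprt*. Within a state the values differed from these, with r over the 6 EB arrays of -0.97 for *Aprt* and 0.85 for *Ppat*, and over the 6 ESC arrays of -0.19 and -0.01. Of the nearest genes with a feature in the RefSeq order, *Phf6* ranged over 8.27 to 9.28 (r = -0.48, with 0.71 in EBs and -0.73 in ESCs) and *Ccdc160* over 5.32 to 6.21 (r = 0.29), and 4 microRNA genes were under the floor on every array.

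Of the other base salvage enzymes, *Aprt* was nearly level. Its signal in EBs was 8.50 and 8.47 in HP1βKO, 8.19 and 8.19 in HP1αKO and 8.41 and 8.49 in WT, with the HP1αKO EBs below all others. In ESCs it was 8.35 and 8.75 in HP1βKO, 8.56 and 8.71 in HP1αKO and 8.64 and 8.56 in WT, and these groups overlapped. *Aprt* was higher in HP1βKO than in HP1αKO EBs by 0.29 ± 0.08 on the log2 scale (SE, n = 2 each, adjusted p = 0.0413, limma). The call did not hold when any 1 array of the 2 groups was left out (adjusted p = 0.0908 to 0.23) or in a fit on all 12 arrays (0.459). Against WT EBs, *Aprt* differed by 0.03 in HP1βKO (95% interval -0.16 to 0.22, adjusted p = 0.829) and by -0.26 in HP1αKO (-0.45 to -0.07, adjusted p = 0.0795). It was the only 1 of the 5 tested members called between the knockout EBs, where 19.9% of all genes tested were called.

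*Adk*, the salvage kinase of adenosine, was at 8.87 and 8.92 in HP1βKO EBs, 9.12 and 9.0 in HP1αKO EBs and 9.23 and 9.14 in WT EBs. The HP1βKO EBs were lowest, with a difference of -0.29 ± 0.09 from WT EBs (adjusted p = 0.0581). In ESCs it was at 9.72 and 9.55 in HP1βKO, 9.46 and 9.16 in HP1αKO and 10.26 and 9.19 in WT, where ESC WT 1, with the highest fibroblast markers, was also highest for *Adk*. HP1αKO ESCs differed from WT ESCs by -0.42 (95% interval -1.29 to 0.46), and by 0.12 without ESC WT 1. Without the 2 libraries opposed by Cbx5, HP1αKO at 9.46 and WT at 10.26 remained, farther apart than the group means. Fibroblast RNA as a part of this level was not tested.

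*Ada*, which removes adenosine by deamination, was under the floor in all 6 EB arrays, at 5.25 and 5.29 in HP1βKO, 4.99 and 5.03 in HP1αKO and 4.94 and 4.88 in WT. The measured signals were highest in HP1βKO EBs. The measured signal of *Ada* was 0.36 ± 0.08 higher in HP1βKO than in WT EBs (adjusted p = 0.0205), a difference between signals that all lay under the floor, and *Ada* was the only tested member called there, 1 of 5 beside 18.8% of all genes tested. Leaving out WT 2 (adjusted p = 0.0826) or HP1βKO 2 (0.0701) ended the call, as did a fit on all 12 arrays (0.444). Against HP1αKO EBs the difference was 0.27 ± 0.08 (adjusted p = 0.0579). In ESCs *Ada* was above the floor on all 6 arrays, at 5.70 and 6.21 in HP1βKO, 6.05 and 5.95 in HP1αKO and 5.99 and 6.24 in WT. The 2 catabolic enzymes beyond it, *Gda* and *Xdh*, were at 2.76 to 3.24 and 2.99 to 3.31 over the 12 arrays and entered no test.

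*Impdh1*, the first enzyme of guanine nucleotide synthesis from IMP, was at 6.79 and 6.48 in HP1βKO EBs, 6.78 and 6.77 in HP1αKO EBs and 6.98 and 6.96 in WT EBs. All 4 knockout arrays lay below WT, with differences of -0.34 ± 0.11 in HP1βKO (adjusted p = 0.0811) and -0.19 ± 0.11 in HP1αKO (adjusted p = 0.328). Without HP1βKO 1 the first difference passed the test (adjusted p = 0.0175). In ESCs *Impdh1* ran from 6.89 to 7.08 with overlapping groups.

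*Ppat*, which starts de novo synthesis, did not pass the test between any lines. It was at 9.92 and 9.86 in HP1βKO EBs, 10.12 and 10.04 in HP1αKO EBs and 9.96 and 9.96 in WT EBs, and at 10.38 to 10.64 over the 6 ESC arrays. Between EB lines its differences were -0.07 (95% interval -0.26 to 0.13) for HP1βKO against WT, 0.12 (-0.07 to 0.32) for HP1αKO against WT and -0.19 (-0.38 to 0.00) for HP1βKO against HP1αKO. No member was called between HP1αKO and WT EBs, where 12.1% of genes were. In the 3 ESC comparisons 0 of 5 members and 0.0% of genes tested were called by limma (at an unadjusted p below 0.05, 163 genes for HP1βKO against HP1αKO, 186 for HP1βKO against WT and 17 for HP1αKO against WT), and the members' differences ran from -0.42 to 0.33, both for *Adk*. Even Cbx1, at 7.59 and 7.99 in HP1βKO ESCs against 9.45 and 10.01 in WT ESCs, was not called. The lack of calls in ESCs is therefore no evidence of equal levels.

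**Figure D3:**
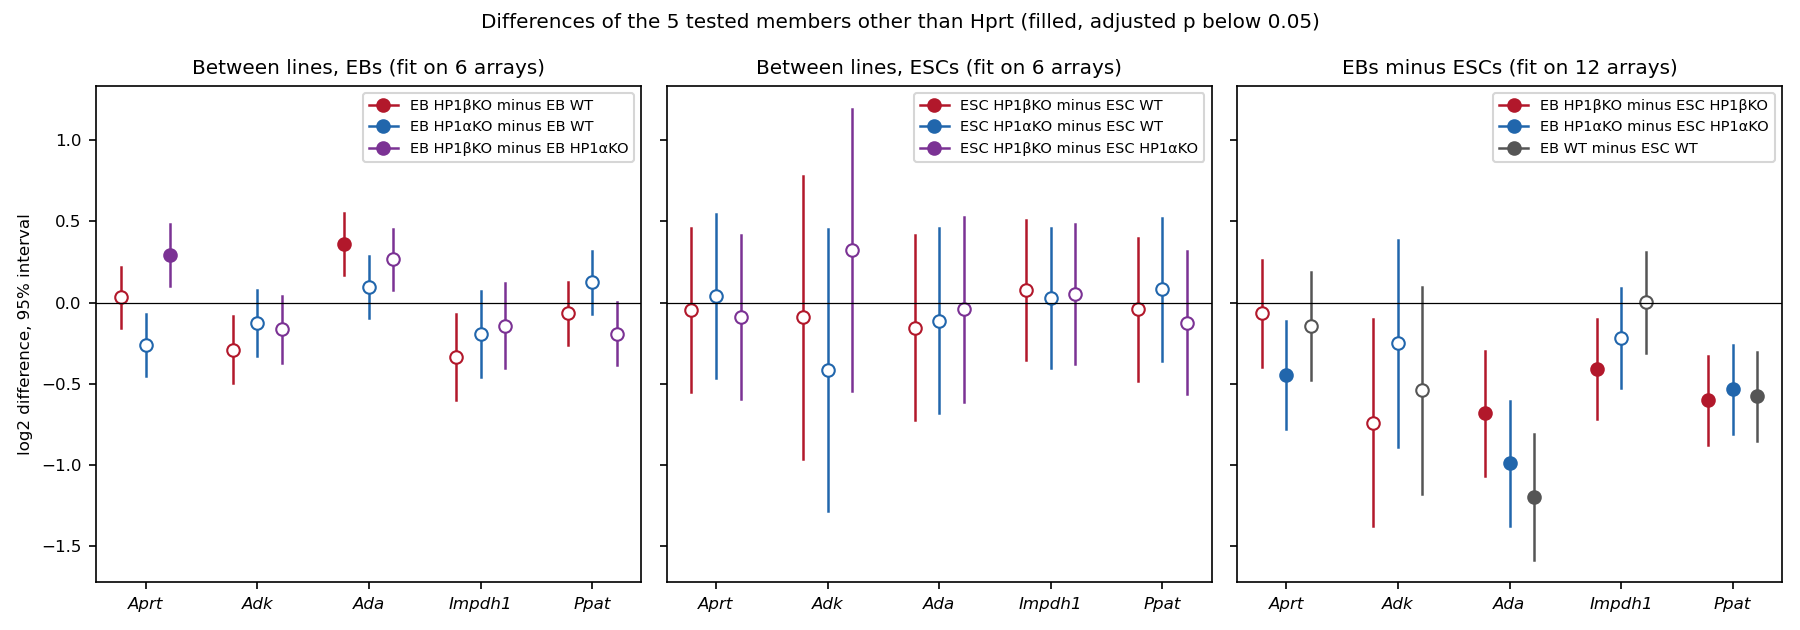
Log2 differences with 95% intervals for the 5 tested members other than *Hprt*, between lines in EBs and in ESCs and between EBs and ESCs of each line, filled where the adjusted p was below 0.05. Filled points are *Ada* (HP1βKO against WT) and *Aprt* (HP1βKO against HP1αKO) in EBs, none in ESCs, and *Ada* and *Ppat* in all 3 lines, *Impdh1* in HP1βKO and *Aprt* in HP1αKO between states.

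Between states, EBs were set against ESCs of the same line. *Ada* was lower in EBs of every line, with measured differences of -0.68 ± 0.17 in HP1βKO (adjusted p = 0.0129), -0.99 ± 0.17 in HP1αKO (adjusted p = 0.00191) and -1.2 ± 0.17 in WT (adjusted p = 0.000879). *Ada* entered the test only through the ESC arrays and its EB signals lay under the floor, so these values are no sizes of change and its calls no support for a fall. *Ppat* fell in every line, with differences of -0.60 ± 0.12 in HP1βKO, -0.54 ± 0.12 in HP1αKO and -0.58 ± 0.12 in WT (adjusted p = 0.0047, 0.00727 and 0.00614). For *Ppat* the EB and ESC arrays of each line did not overlap, with or without the 2 libraries opposed by Cbx5. The share of all genes without such overlap was not counted, so this describes the arrays only. The arrays for *Ada* did not overlap either, which is a description only, given how *Ada* passed the floor. *Impdh1* fell in HP1βKO by 0.41 ± 0.14 (adjusted p = 0.0422) and *Aprt* fell by 0.45 ± 0.15 in HP1αKO (adjusted p = 0.0359).

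The 5 tested members thus gave 3 falls in HP1βKO, beside 15.1% of genes called lower and 37.1% called either way, 3 in HP1αKO (16.5% and 41.6%) and 2 in WT (14.2% and 36.2%). None rose. *Ada* is 1 of the calls in each line, and without it 2, 2 and 1 are left. The *Impdh1* call was lost without any of 3 arrays (HP1βKO EB 2, ESC 1 or ESC 2, adjusted p = 0.101 to 0.276), and *Ada* in HP1βKO without EB 1, EB 2 or ESC 2 (0.0582 to 0.0836). The *Aprt* call was lost without HP1αKO EB 1, EB 2 or ESC 2 (0.128 to 0.143), and *Ppat* in HP1αKO without EB 2 (0.067). *Adk* differed by -0.74 in HP1βKO, -0.25 in HP1αKO and -0.54 in WT (adjusted p = 0.0672, 0.507 and 0.166). In WT its difference was -1.08 without ESC WT 2 (adjusted p = 0.00231) and 0.00 without ESC WT 1 (adjusted p = 0.984). With the replicate number as a block *Adk* passed in HP1βKO (adjusted p = 0.0214). Without both libraries opposed by Cbx5 it passed in all 3 lines (adjusted p = 0.000806, 0.0341 and 0.000655), while *Aprt* did not pass in HP1αKO (0.102). In bulk RNA, fewer cells of a type and less RNA per cell cannot be told apart.

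The effect of each knockout was compared between EBs and ESCs. None of the 5 tested members passed for HP1βKO (1.3% of genes did) or for HP1αKO (0.23%). None passed either without the 2 libraries opposed by Cbx5. The largest interaction was that of *Ada* for HP1βKO, 0.52 with a 95% interval of -0.03 to 1.06 (adjusted p = 0.489).

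The wider purine pathway was read from 4 lists with 41 genes tested, 35 of them above the floor on all 12 arrays. Between HP1βKO and WT EBs 3 rose and 5 fell, beside 18.8% of all genes called, between HP1αKO and WT EBs 5 rose and 2 fell (12.1%), and between HP1βKO and HP1αKO EBs 4 rose and 6 fell (19.9%). In ESCs none passed in any of the 3 comparisons, where no gene of the series did, Cbx1 included. The 14 tested genes of interconversion and breakdown gave 6 of the 8 calls for HP1βKO against WT EBs and 3 of the 7 for HP1αKO against WT EBs. Among these calls, *Ak5*, *Ampd3* and *Entpd1* for HP1βKO and *Ak5* and *Entpd1* for HP1αKO had WT signals under the floor. They are no measured sizes of change. *Ak5* and *Entpd1* passed the floor only through knockout EBs in which they were high. Their calls are no support for a difference or for calls gathering in this list. The 17 genes of de novo synthesis had medians of 0.01, 0.03 and -0.04 in the 3 EB comparisons, close to the medians of -0.01, 0.03 and -0.02 over all genes tested.

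*Adssl1*, the muscle form of adenylosuccinate synthetase, was at 5.64 and 5.54 in HP1βKO EBs, 7.43 and 7.50 in HP1αKO EBs and 7.22 and 7.26 in WT EBs. It fell by 1.65 ± 0.09 in HP1βKO against WT EBs (adjusted p = 2.46e-05), and differed by -1.88 ± 0.09 between HP1βKO and HP1αKO EBs (adjusted p = 1.04e-05). The summed level of 7 cardiac muscle markers followed the same order, at 10.01 and 9.43 in HP1βKO, 13.70 and 13.68 in HP1αKO and 12.75 and 12.65 in WT EBs. The part of muscle cells in the *Adssl1* difference was not tested.

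Among adenylate kinases, which exchange phosphates between adenine nucleotides, *Ak5* rose by 1.2 ± 0.15 in HP1βKO and by 0.68 ± 0.15 in HP1αKO against WT EBs (adjusted p = 0.00142 and 0.0255), and was 0.53 higher in HP1βKO than in HP1αKO EBs (adjusted p = 0.0435). *Ak5* was above the floor on 3 of the 4 knockout EB arrays only, with WT EBs at 4.72 and 4.65, so its differences from WT are between measured signals and no sizes of change. *Ak1* rose by 0.48 ± 0.09 and 0.78 ± 0.09 in the same order (adjusted p = 0.00743 and 0.00147). *Ak4*, a mitochondrial member, fell by 0.68 ± 0.10 in HP1βKO against WT EBs (adjusted p = 0.00372), and was lower in HP1βKO than in HP1αKO EBs, at 7.06 and 6.99 against 7.93 and 8.12. *Entpd1*, the ectonucleotidase CD39, was at 4.13 and 3.84 in HP1βKO EBs, 5.37 and 5.70 in HP1αKO EBs and 4.51 and 4.81 in WT EBs. Only the HP1αKO EB 2 array was above the floor in the series, and through it the gene entered the test. Measured differences from WT were -0.68 ± 0.16 in HP1βKO, with all 4 arrays under the floor, and 0.88 ± 0.16 in HP1αKO (adjusted p = 0.0229 and 0.0121), and HP1βKO differed from HP1αKO EBs by -1.55 (adjusted p = 0.000481). *Dguok*, the mitochondrial deoxyguanosine kinase, fell by 0.54 ± 0.09 in HP1αKO against WT EBs (adjusted p = 0.00942) and was 0.49 higher in HP1βKO than in HP1αKO EBs. The AMP deaminase *Ampd3* had a measured difference of 0.75 ± 0.19 between HP1βKO and WT EBs (adjusted p = 0.0344) with all 4 arrays under the floor. The nucleoside transporters *Slc29a3* (-0.32 in HP1αKO against WT EBs, adjusted p = 0.0494) and *Slc29a1* (0.38 in HP1βKO against HP1αKO EBs, adjusted p = 0.0219) completed the named genes. In a fit on all 12 arrays, 5 of these 17 calls held (*Adssl1* against both lines, *Ak5* for HP1βKO and *Ak1* for HP1αKO against WT, and *Entpd1* between the knockouts) and 12 did not. *Ak5* and *Entpd1* passed the floor only through EBs in which they were high, so their calls are no support for a difference.

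De novo synthesis genes other than *Ppat* were then compared between states. Of 17 tested, 13 fell in HP1βKO EBs, 12 in HP1αKO EBs and 13 in WT EBs against ESCs of the same line, with medians of -0.69, -0.65 and -0.68 beside 0.04, 0.05 and 0.05 over all genes. *Adssl1* alone rose, in HP1αKO (1.01) and WT (1.2), and it was among the genes that fell in HP1βKO (-0.998). The 11 genes that fell in all 3 lines were *Adsl*, *Adss*, *Atic*, *Gart*, *Mthfd1*, *Mthfd1l*, *Mthfd2*, *Pfas*, *Prps1*, *Shmt1* and *Shmt2*, and *Gmps*, *Paics* and *Prpsap1* passed in none. *Prps1*, a PRPP synthetase, was at 9.31 and 9.16 in HP1βKO EBs against 10.61 and 10.84 in HP1βKO ESCs, a difference of -1.49 ± 0.19 (adjusted p = 0.000371). The differences were -1.83 ± 0.19 in HP1αKO and -1.85 ± 0.19 in WT. *Mthfd2*, a mitochondrial folate enzyme, had differences of -1.27, -1.58 and -1.61 in HP1βKO, HP1αKO and WT, and *Gart*, a trifunctional enzyme of ring assembly, -1.12, -1.22 and -1.18.

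**Figure D4:**
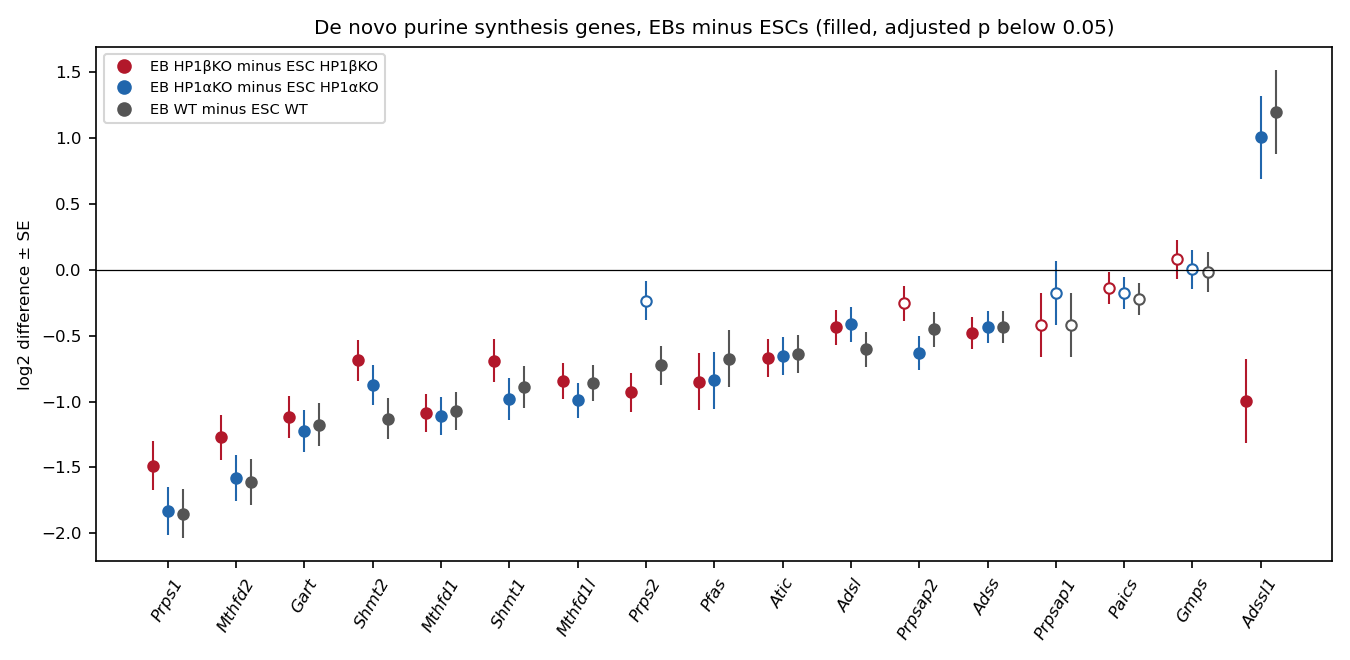
Log2 difference of EBs minus ESCs (± SE) for the 17 de novo synthesis genes in HP1βKO, HP1αKO and WT, filled where the adjusted p was below 0.05. *Prps1* and *Mthfd2* lie lowest in WT (-1.85 and -1.61), and *Adssl1* is positive in HP1αKO and WT and negative in HP1βKO.

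Salvage kinases and transporters were mixed between states. *Pnp*, which splits nucleosides into base and sugar phosphate, fell by 1.23 ± 0.24 in HP1βKO (adjusted p = 0.00367), and differed by -0.44 in HP1αKO (adjusted p = 0.164) and -0.68 in WT (adjusted p = 0.0486). *Slc29a1*, the equilibrative nucleoside transporter, fell in 2 lines, with differences of -1.85 ± 0.32 in HP1αKO and -1.66 ± 0.32 in WT (adjusted p = 0.00205 and 0.00421), and its difference in HP1βKO was -0.76 (adjusted p = 0.094). *Ak3* rose by 1.27, 1.75 and 1.02 in HP1βKO, HP1αKO and WT, and *Slc43a3*, a nucleobase transporter, by 1.18, 0.76 and 0.83. *Entpd1* and *Ak5* were under the floor in all ESCs, and their calls (*Entpd1* in HP1αKO and WT, *Ak5* in HP1βKO and HP1αKO) are given without a size. Both entered the test only through EBs, so these calls, counted below among the genes that rose, are no support for a rise. Without the 2 libraries opposed by Cbx5 the 18 named differences between states kept their sign, those of *Entpd1* and *Ak5* included. *Slc29a1* then differed by -1.54 in HP1αKO and -1.18 in WT, and *Ak3* by 1.58 and 0.70 in the same order. Without the 2 libraries opposed by Cbx5, 14, 13 and 12 de novo genes were called in HP1βKO, HP1αKO and WT, counting both directions, against 13, 13 and 14 with all libraries. Over all 41 genes, 19 fell and 4 rose in HP1βKO (15.1% of all genes tested were called lower and 37.1% either way), 17 fell and 7 rose in HP1αKO (16.5% and 41.6%), and 18 fell and 5 rose in WT (14.2% and 36.2%). None of the 41 passed the test of a knockout effect that differed between EBs and ESCs, so the opposite signs of *Adssl1* between lines were not shown to differ by that test.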

How the data were processed

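The authors deposited 1 table of log2 signals for 12 Mouse Gene 1.0 ST arrays, processed with RMA in the Affymetrix Expression Console (versions not given in the sources used here), which corrects background, quantile-normalises and summarises probes, so that differences are relative within the set and low signals are compressed. The study's methods name an exon array, but the feature numbers are those of the gene array. Of 35556 features, 21789 carried 1 gene symbol, 1621 several and 12146 none. The feature with the highest mean stood for each of 19938 genes, of which 19856 matched RefSeq by gene number, and 10880 passed the floor of 45. Tests used limma 3.58.1 in R 4.3.3 on the log2 values, two-sided, with Benjamini-Hochberg adjustment over all genes tested and a threshold of 0.05. Comparisons between lines used the 6 arrays of that state (3 residual degrees of freedom), comparisons between states and interactions all 12 (6). The fits were also run on simulated data, with independent noise and the same SD for all groups of a state. The ESC groups differed in spread and had correlated replicate differences, so that run does not show how the fits behave on them. Members, gene lists and fits were chosen with earlier results of these data known. Named were all members, up to 3 called genes in each direction per comparison from the pathway lists, the 5 genes with the highest and the 5 with the lowest correlation with *Hprt* (locus-number, Rik and Gm names skipped), the 3 measured genes on either side of it, the targeted genes and marker lists; *Gart* and the overlap of de novo genes were added after their values were seen. Replicate differences correlated between groups at 0.30 to 0.50 in ESCs and -0.45 to 0.11 in EBs, so replicate numbers may pair ESC arrays only. No main fit used this pairing, and the replicate block was an alternative setting applied to the arrays of either state. Alternatives were another or no floor, other arrays in the fit, median centring, a replicate block and leaving arrays out.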

Additional observations from a re-analysis of the deposited data

How the results depend on the processing

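With 2 arrays per group, the calls between EB lines were the least stable. The 1 member called between HP1βKO and WT EBs became 0 in the fit on all 12 arrays, with no floor or with the replicate block, and 0 to 2 when 1 array was left out; with a floor of 100 it was *Adk* and no longer *Ada*, which left the test. The 1 member called between HP1βKO and HP1αKO EBs became 0 in the fit on all 12 arrays, with no floor, with the replicate block and without any 1 array, and 2 after median centring. Between HP1αKO and WT EBs, 0 became 1 after centring (*Aprt*). Between states, WT gave 1 in place of 2 members on its 4 arrays alone and with a floor of 100; leaving out 1 array gave 2 to 3 in WT, 1 to 3 in HP1αKO and 1 to 2 in HP1βKO, in place of 2, 3 and 3. De novo genes called became 9 in place of 14 in WT on its 4 arrays alone, 9 to 14 without 1 array, and 7 to 12 in place of 13 in HP1βKO without 1 array. No called difference turned its sign. *Hprt*, which was not tested, did so between HP1αKO and WT ESCs (0.74 without HP1αKO 2), between HP1βKO and HP1αKO ESCs (0.36 without HP1αKO 1) and between EBs and ESCs of HP1αKO (-1.84 without ESC HP1αKO 2 and -0.04 without EB HP1αKO 2). *Impdh1* between states in WT was -0.13 after centring and -0.0788 to 0.0827 without 1 array; without 1 array *Aprt* between HP1βKO and WT EBs was -0.0084 to 0.071, *Impdh1* between HP1βKO and HP1αKO EBs -0.3013 to 0.0166, *Aprt* between states in HP1βKO -0.27 to 0.13, and *Adk* between ESC lines -0.63 to 0.45 (HP1βKO against WT) and -0.95 to 0.12 (HP1αKO against WT). Genes called fell to 353, 135 and 406 on all 12 arrays, in place of 2043, 1320 and 2167 (HP1βKO against WT, HP1αKO against WT and HP1βKO against HP1αKO EBs); leaving out 1 array gave as few as 1459 (WT 2), 403 (HP1αKO 2) and 956 (HP1αKO 2), and between states 2352 in place of 4038 in HP1βKO, 2566 in place of 4522 in HP1αKO and 1911 in place of 3941 in WT (without EB 2, EB 1 and EB 2), so that the shares of all genes called depend on single arrays. The replicate block gave 863 in place of 1320, WT on its 4 arrays 2219 in place of 3941, and the interactions ran over 54 to 628 in place of 141 (HP1βKO) and 12 to 161 in place of 25 (HP1αKO). The block changed no ESC call. Centring lowered the median of all genes between states by 0.13 and the share of calls that were higher to 44.99%, 46.26% and 46.25% in HP1βKO, HP1αKO and WT, in place of 59.2%, 60.2% and 60.7%; between HP1βKO and HP1αKO EBs it was 52.4% in place of 41.7%. Crossing the EB WT numbers in the block, tried after seeing the data, left 2314 genes and 1 member called for HP1βKO against WT EBs. No measured member had another feature to try. The causes were not tested.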
